A study of Arabidopsis thaliana with 12 samples.

Results

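Some Arabidopsis transcripts gave a signal above 0 on every array of one light treatment and were mostly listed at 0 under the other. These probes were collected by their deposited intensities. A probe counted as detected under a single light if it was above 0 on all 6 arrays of that treatment and above 0 on at most 2 of the 6 arrays of the other. Of 3439 probes, 60 met this rule, 46 for white light (1.34% of all probes) and 14 for blue light (0.407%). The rule read all 12 arrays, so these counts and the levels below are descriptions without a test.

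The plants were Arabidopsis thaliana, a small flowering plant of the cabbage family, wild type (WT) in the Landsberg ecotype. One group had stood for 48 hours under white light at 20 µE, and the other had spent its final 48 hours under blue light at 200 µE. Each treatment was measured on 6 arrays of total RNA, numbered 1 to 6. Colour and fluence changed together and cannot be told apart, and the labels name no organ or plant age, and do not say whether the 6 arrays come from separate plants.

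Plants sense blue light through cryptochromes and phototropins, flavin-binding photoreceptors that change the expression of many nuclear genes. Light is also the energy source of the chloroplast. When it is stronger than photosynthesis can use, leaves adjust the expression of genes for light harvesting, photoprotection and repair. None of 43 genes listed for these responses, from photoreceptors to light-harvesting proteins and organ markers, was the only gene paired with a probe of the array (0 genes on such probes), so the organ could not be checked and the pathway genes were not read.

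The platform's annotation paired 1562 of the 3439 probes with genes, 692 with a single gene and 870 with several, while 1877 probes are unnamed here. Among the 46 white-light probes, 9 had a single gene, 8 had several and 29 were unnamed. Among the 14 blue-light probes the numbers were 5, 3 and 6. Gene names below come from the 14 probes with a single gene, and a probe with several genes is called by its number.

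**Figure D1:**
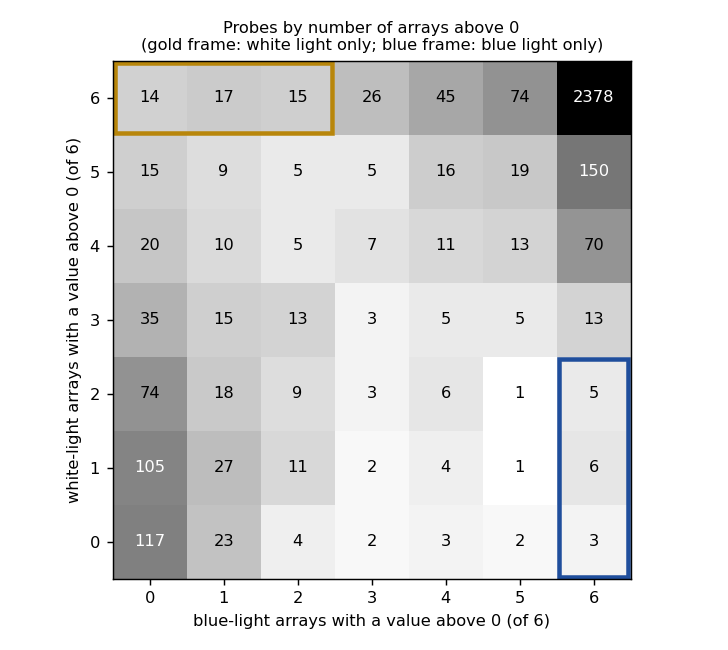
Number of probes by how many of the 6 white-light arrays (vertical axis) and of the 6 blue-light arrays (horizontal axis) listed them above 0. The gold frame holds 14, 17 and 15 probes detected under white light only, the blue frame holds 3, 6 and 5 probes detected under blue light only, and 2378 probes were above 0 on all 12 arrays.

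The strictest form of the pattern was rare. Of the white-light probes, 14 had no value above 0 under blue light (0.407% of all probes), 17 more were above 0 on 1 blue-light array and 15 on 2. In the opposite direction 3 probes were at 0 on all 6 white-light arrays (0.0872% of all probes), 6 were above 0 on 1 white-light array and 5 on 2. As a share of what each treatment detected on all its arrays, the 46 probes were 1.79% of 2569 probes and the 14 probes 0.533% of 2625.

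The brightest single-gene probes detected under white light only were those of AT4G05070, AT5G05330 and DRT101. AT5G05330, which encodes a protein of the HMG-box family of DNA-binding proteins, had intensities of 0.535, 0.348, 0.515, 0.448, 0.410 and 0.364 on white-light arrays 1 to 6 and was listed at 0 on all 6 blue-light arrays. AT4G05070, of a wound-responsive protein family, had 0.445, 0.368, 0.545, 0.557, 0.461 and 0.468 on white-light arrays 1 to 6, and was above 0 on blue-light array 5 alone, at 0.0417. DRT101, named for DNA damage repair and toleration, had 0.212, 0.270, 0.302, 0.292, 0.139 and 0.128 under white light and was listed at 0 on all 6 blue-light arrays. AT5G05330 and DRT101, at 0 on every blue-light array, could not overlap between the treatments. The blue-light value of AT4G05070 lay below all its white-light values. Because the rule keeps most values of the other light at 0, separation in this and the members below is favoured by the choice. It is given as description only. In deposited intensity AT5G05330 and AT4G05070 had highest-to-lowest ratios of 1.54 and 1.51. DRT101 was lowest on arrays 5 and 6, the arrays with the lowest medians of the series (0.0920 and 0.0945). As percentile rank among all probes of an array, AT5G05330 ran from 72.0 to 90.5 and AT4G05070 from 73.7 to 91.7. DRT101 ran from 57.1 to 65.9, so which gene was steadier depends on the scale.

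A pair of chloroplast genes and a mitochondrial gene were dimmer. AT1G29070, a ribosomal protein of the large subunit in chloroplasts, had 0.130, 0.0794, 0.0146, 0.0665, 0.0430 and 0.0550 on white-light arrays 1 to 6, and every blue-light array listed it at 0. Cpn60beta4, a subunit of the chloroplast chaperonin that folds imported and newly made proteins, ran from 0.0257 to 0.112 under white light with a median of 0.0527, and had 0.0333 on blue-light array 3. ETFQO, which passes electrons from the breakdown of amino acids to ubiquinone in mitochondria and is known for its role in carbon starvation, ran from 0.0430 to 0.119 with a median of 0.0893, and had 0.00959 and 0.0167 on blue-light arrays 5 and 6. The white-light and blue-light values of Cpn60beta4 overlapped, since array 3 under blue light exceeded the lowest white-light array. Those of ETFQO did not, and AT1G29070, at 0 on every blue-light array, could not overlap.

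The other 3 genes of this direction were also dim. AT1G72890, of the TIR-NBS class of disease resistance proteins, had 0.179, 0.150, 0.145, 0.0686, 0.0288 and 0.0101 on white-light arrays 1 to 6 and 0 on all 6 blue-light arrays. AT1G58230 ran from 0.0761 to 0.155 with a median of 0.119 under white light, and had 0.0703 and 0.0424 on blue-light arrays 2 and 6. AT1G50770, of the plant mobile domain family, ran from 0.00698 to 0.0540 with a median of 0.0225, the lowest median of the 46 probes, and had 0.00783 on blue-light array 2. The treatments overlapped for AT1G50770 and were separate for AT1G58230, while AT1G72890, at 0 on every blue-light array, could not overlap. ETFQO, Cpn60beta4, AT1G58230 and AT1G50770 lay outside the rule for named genes and were added after their values were seen, so that every probe of the 46 with a single gene is described. Of the white-light probes given by number below, 619, 4369, 539, 1060, 1226 and 3359 were likewise chosen after their values were seen.

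Several probes of this direction without a single gene were as bright as the named genes. Probe 1562, paired with several genes, had 0.294, 0.253, 0.296, 0.266, 0.0840 and 0.176 on white-light arrays 1 to 6 and no value above 0 under blue light. Probe 3549, also paired with several genes, ran from 0.0912 to 0.517 with a median of 0.315, and had 0.0270 on blue-light array 5. Probe 619, unnamed, ran from 0.241 to 0.599 with a median of 0.424, and had 0.0322 and 0.183 on blue-light arrays 5 and 6. In probes 3549 and 619 the lowest white-light value stood above the highest blue-light value. Probe 1562, at 0 under blue light, could not overlap. Probe 4369 had the lowest highest-to-lowest ratio of the 46 in deposited intensity, at 0.236 to 0.306 under white light. Its percentile rank within the array ran from 56.8 to 83.5, and it had 0.0759 and 0.0837 on blue-light arrays 5 and 6.

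Other probes were uneven within white light. Probe 4371 had 0.109, 0.243, 0.682, 0.779, 0.140 and 0.188 on arrays 1 to 6, highest on arrays 3 and 4, with 0.00621 on blue-light array 6. Probe 539 had 0.817 on white-light array 4 and 0.0117 to 0.198 on the other 5, and 0.112 on blue-light array 6. Probe 1060 fell to 7.72e-05 on white-light array 4, the lowest value of any member on a detecting array, and reached 0.135 on array 2. Probes 539 and 1060 overlapped between the treatments, so that their place in the list rests on values near 0.

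The probes detected under blue light only were fewer, and their brightest genes lay at higher deposited intensities. Over all probes, 11.7% to 16.7% were at 0 on a white-light array and 16.5% to 18.3% on a blue-light array. By median percentile rank within the array, AT2G21530 stood at 92.5, AT4G13680 at 80.4 and AT2G27680 at 72.2. Under white light AT5G05330 and AT4G05070 stood at 80.1 and 78.2, so by rank only AT2G21530 was clearly higher. AT2G21530, which encodes a protein with a forkhead-associated domain, a fold that binds phosphorylated threonine, had 2.19, 1.77, 1.53, 1.18, 2.34 and 2.20 on blue-light arrays 1 to 6 and was listed at 0 on all 6 white-light arrays. AT2G27680, of the family of NAD(P)-linked oxidoreductases, had 0.474, 0.224, 0.537, 0.0783, 0.809 and 0.865 under blue light and was at 0 on all 6 white-light arrays. AT4G13680 had 0.887, 0.730, 0.736, 0.782, 0.127 and 0.143 on blue-light arrays 1 to 6, and 0.0178 on white-light array 1. AT2G21530 had the highest median of all 60 probes, 1.98. The white-light value of AT4G13680 lay below all its blue-light values. AT2G21530 and AT2G27680, at 0 on every white-light array, could not overlap. AT4G13680 was high on arrays 1 to 4 and low on arrays 5 and 6, while AT2G27680 was highest on arrays 5 and 6.

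The blue-light direction also held a mitochondrial and a glycosyltransferase gene. AT4G31930, of the mitochondrial glycoprotein family, had 0.602, 0.425, 0.460, 0.381, 0.486 and 0.458 on blue-light arrays 1 to 6, and 0.0376 and 0.0469 on white-light arrays 1 and 2. AT2G26100, of the galactosyltransferase family that builds cell-wall and glycoprotein sugars, ran from 0.106 to 0.236 with a median of 0.200 under blue light, and had 0.0931 and 0.0649 on white-light arrays 1 and 2. Both genes were thus above 0 in the same pair of white-light arrays and at 0 on arrays 3 to 6. The treatments did not overlap for either gene, but for AT2G26100 the highest white-light value, 0.0931, lay close to the lowest blue-light value, 0.106.

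The 9 blue-light probes without a single gene were dimmer than AT2G21530. Probe 4099, unnamed, had 0.204, 0.250, 0.121, 0.0755, 0.284 and 0.476 on blue-light arrays 1 to 6 and was the remaining probe with no white-light value above 0. Probe 3213, unnamed, ran from 0.207 to 0.445 with a median of 0.342, and had 0.0185 and 0.00308 on white-light arrays 5 and 6. Probe 2719, paired with several genes, had 0.340, 0.397, 0.231, 0.270, 0.00195 and 0.0231 on blue-light arrays 1 to 6, and 0.00939 on white-light array 2. Probe 3213 was separate between the treatments, and probe 2719 was not, since blue-light array 5 lay below white-light array 2. Probe 4099, at 0 on every white-light array, could not overlap. Probe 3856 had the lowest median of the 14, 0.0202, and of its white-light values of 0.0313 and 0.0138 on arrays 4 and 5 the first exceeded every blue-light array.

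**Figure D2:**
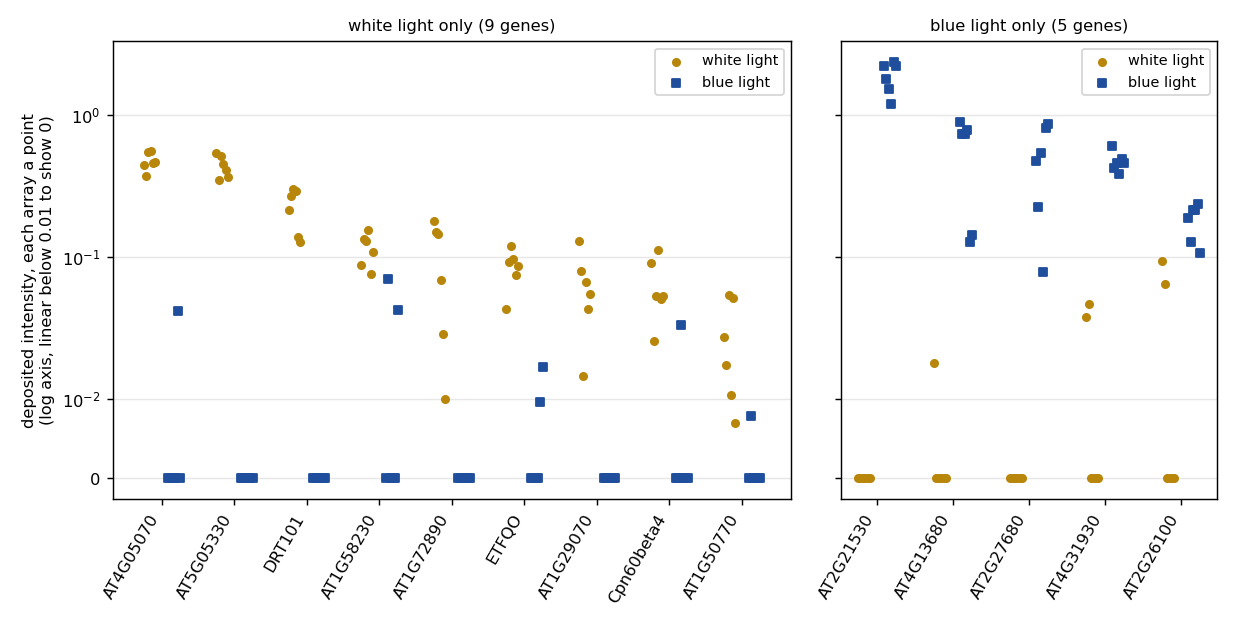
Deposited intensity (vertical log axis, linear below 0.01 so that 0 can be shown) of the 9 and 5 probes with a single gene in each direction, with 1 point for each array, gold circles for white light and blue squares for blue light. AT2G21530 reached 1.18 to 2.34 under blue light with all white-light arrays at 0, whereas the points of Cpn60beta4 and AT1G50770 overlapped between the treatments.

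Most probes detected under white light only were dim. Their median intensities under white light ran from 0.0225 to 0.587, with a median over the 46 probes of 0.0943, against 0.161 over all 3439 probes, and 14 of the 46 lay above that value of all probes. Over the 2569 probes above 0 on all 6 white-light arrays, as every member must be, the median was 0.223. On each array the 46 probes took a median percentile rank of 35.3 ± 2.04 (SD, n = 6 arrays) among all probes, where values at 0 share the lowest ranks. The brightest by median was probe 1226, which has no gene paired and had 0.362, 0.813, 1.06, 0.900, 0.175 and 0.111 on white-light arrays 1 to 6, and 0.0630 and 0.191 on blue-light arrays 5 and 6. Probe 1226 overlapped between the treatments, because blue-light array 6 exceeded white-light arrays 5 and 6.

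The 14 probes detected under blue light only lay near the middle of all probes on their arrays. Their medians ran from 0.0202 to 1.98, with a median over the probes of 0.245 against 0.200 over all probes, and 10 of the 14 lay above that value. Over the 2625 probes above 0 on all 6 blue-light arrays, as every member must be, the median was higher, at 0.311. The median percentile rank of the 14 probes among all probes was 51.7 ± 6.29 (SD, n = 6 arrays). The members of each direction held a small part of the signal, 0.365% ± 0.0583 (SD, n = 6) of the summed intensity of a white-light array for the 46 probes and 0.174% ± 0.0284 (SD, n = 6) of a blue-light array for the 14 probes.

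**Figure D3:**
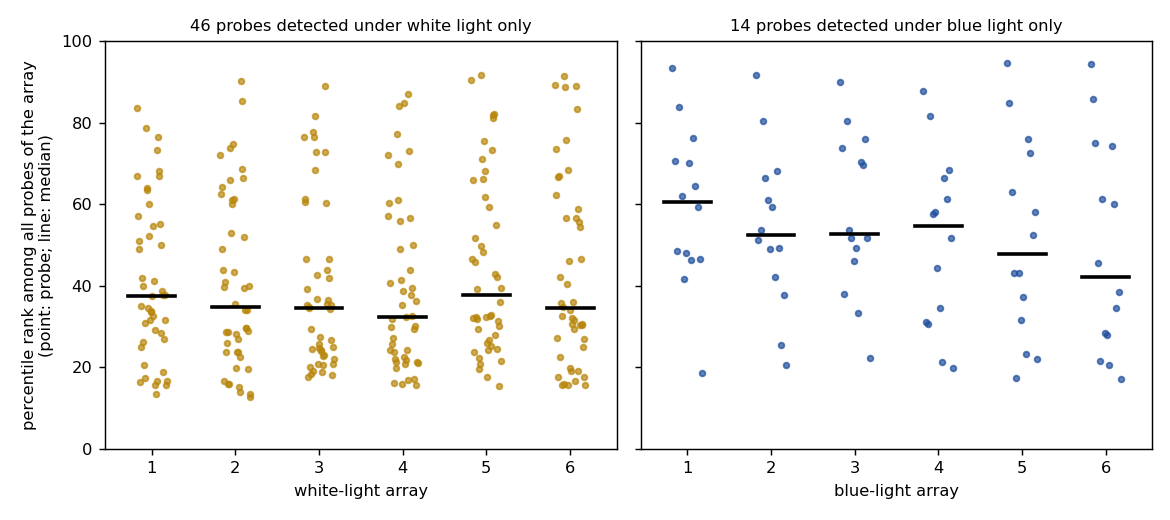
Percentile rank (vertical axis) of each probe among the 3439 probes of an array (horizontal axis), for the 46 white-light probes on the left and the 14 blue-light probes on the right, with a black line at the median of each array. The medians lie between 32.4 and 37.7 on the white-light arrays and between 42.1 and 60.6 on the blue-light arrays, where they are lowest on arrays 5 and 6.

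Members differed in how steady they were between arrays. The coefficient of variation over the 6 white-light arrays ran from 0.0970 to 1.59 for the 46 probes, with a median of 0.527, against 0.479 for the 2569 probes above 0 on all white-light arrays. For the 14 blue-light probes it ran from 0.159 to 0.876 with a median of 0.600, against 0.255 for 2625 probes. The blue-light members had the higher variation against the typical probe of their light, and the white-light members lay close to theirs. On white-light arrays 5 and 6 the 46 probes had a median of 0.559 times their mean on arrays 1 to 4 (below 1 for 39 of 46), as the probes above 0 on all white-light arrays had 0.468 times theirs.

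The few values above 0 under the other light were small and unevenly spread over arrays. For the 46 white-light probes, 47 of 276 values on blue-light arrays were above 0, with a median of 0.0307 and a highest value of 0.191. Blue-light arrays 5 and 6 held 15 and 14 of them, arrays 1 and 2 held 7 each and arrays 3 and 4 held 2 each. Over all probes the blue-light arrays differed little in their share at 0, which was 16.5% to 18.3% and highest on arrays 3 and 4. For the 14 blue-light probes, 16 of 84 values on white-light arrays were above 0, with a median of 0.0422 and a highest value of 0.172, and each white-light array held 2 to 4 of them.

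These values sometimes reached the level of the detecting light. In 15 of the 46 white-light probes the highest blue-light value exceeded the lowest white-light value, and in 3 it exceeded the white-light median. The same held for 6 and 1 of the 14 blue-light probes. These counts were not made over all probes. The rule allows at most 2 of the 6 arrays of the other light above 0, so it favours separation between the lights. The 14 white-light and 3 blue-light probes at 0 on all 6 arrays of the other light could not overlap. When a probe was above 0 on 2 arrays of the other light, both arrays belonged to the same set (arrays 1 and 2, 3 and 4, or 5 and 6) in 7 of 15 white-light probes and in 4 of 5 blue-light probes. The same count was not made over probes outside the list, so it cannot be called a trait of the members. Across all probes, white-light arrays of a set had Spearman's rho of 0.849 to 0.929 (3 pairs) and those of different sets 0.730 to 0.838 (12 pairs). Blue-light arrays had 0.956 to 0.981 within sets and 0.894 to 0.965 between sets, which overlap. The labels do not say what the arrays of a set share.

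At the edge of the rule, white-light probes just inside and just outside had similar levels. The medians of the few blue-light probes differed, but their ranges overlapped. The 15 white-light probes above 0 on 2 blue-light arrays had a median of medians of 0.109, and the 26 probes above 0 on 3 blue-light arrays had 0.103, with highest blue-light values whose medians were 0.0520 and 0.0514. The 5 blue-light probes just inside had 0.248 (0.0202 to 0.459) and the 13 just outside 0.121 (0.0285 to 0.562). Their highest white-light values had medians of 0.0469 and 0.0767. The counts therefore move with the limit, to 72 and 27 probes when 3 arrays of the other light are allowed. They also move with the meaning of detection. With a value counted only above the 25th percentile of the values above 0 of its array, 127 probes were detected under white light only and 128 under blue light only, of which 11 and 6 are among the 46 and the 14, so that the larger number under white light was not seen at that level.

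The same pattern was also read with the arrays divided into those that choose a probe and a pair that is looked up. Probes were chosen on 4 arrays of each treatment, above 0 on all 4 of one light and on at most 1 of the 4 of the other. With arrays 1 and 2 left out, 51 probes were chosen for white light, 39 of them among the 46, and 26 (51.0%) were above 0 on both white-light arrays and at 0 on both blue-light arrays left out. With arrays 3 and 4 left out this was so for 29 of 55 (52.7%), and with arrays 5 and 6 left out for 21 of 71 (29.6%). For blue light it was so for 6 of 18 (33.3%), 8 of 16 (50.0%) and 7 of 23 (30.4%) in the same order. Over all probes the shares were 3.29%, 2.59% and 2.70% for white light and 0.843%, 1.60% and 1.40% for blue light. All probes include the 2378 that were never at 0, so the gap to these shares follows in part from the choice. The arrays left out are among the 12 that define the members. The counts therefore describe how the members' zeros are spread over the arrays and are no independent support for them.

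Which side was missing differed between the pairs of arrays. With arrays 3 and 4 left out, 49 of 55 white-light probes were at 0 on both blue-light arrays, but 33 of 55 were above 0 on both white-light arrays. With arrays 1 and 2 left out, 49 of 51 were above 0 on both white-light arrays, against 84.9% of all probes. At 0 on both blue-light arrays were 28 of 51, against 14.8% of all probes. Both white-light values lay above both blue-light values for 46 of 51, 31 of 55 and 42 of 71 white-light probes, and none lay wholly below. For blue light this was so for 16 of 18, 11 of 16 and 14 of 23, with 1, 1 and 0 wholly below. The counts of probes wholly above or below were not made over all probes, so no share stands beside them.

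Probe numbers divisible by 6 were mostly listed at 0 and gave few members. Of the 261 such probes, 193 were above 0 on at most 2 arrays in each light, and 63 were at 0 on all 12 arrays, out of 117 such probes in the whole table. Their values were at 0 in 70.8% of cases under white light and in 85.8% under blue light, against 9.53% and 11.6% for all other numbers. Only 2 of the 60 members had such a number (3.33%), both detected under white light, whereas these numbers make up 7.59% of all probes. The exact 95% binomial interval of that share is 0.406% to 11.5% and includes 7.59%. It covers counting error only and treats members as independent, although some lay close to each other in number. It therefore cannot decide whether the share differs from 7.59%. A probe must be above 0 on 6 arrays to be a member, and 25 and 18 of the 261 were so under white and blue light. Of these 25, the 2 members were 8%, against 1.79% of all probes above 0 on every white-light array, so the direction of the comparison depends on which probes it is made among.

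The 2 members with a number divisible by 6 were probes 2580 and 2760, which are paired with several genes. Probe 2580 ran from 0.00631 to 0.0780 under white light with every blue-light array at 0, and probe 2760 ran from 0.0714 to 0.446 with 0.00275 on a single blue-light array. The values above 0 among the 261 probes, these 2 members included, had medians of 0.0348 under white light and 0.0626 under blue light. Values above 0 of the other probes had medians of 0.187 and 0.278. The medians of 43 of the 46 white-light members and 12 of the 14 blue-light members lay above 0.0348 and 0.0626. Above the 90th percentiles of 0.288 and 0.336 lay 5 and 5. Members had to be above 0 on all 6 arrays, which favours higher values, and their medians are here set against single values. The share of all probes above these levels was not counted, so the counts cannot be called a trait of the members. Over the other 5 remainders the 58 remaining members were spread, with 7 to 10 white-light and 1 to 4 blue-light probes in each.

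Probes 2580, 2760 and 4369 had a second probe on the array with exactly the same genes paired, and none of the second probes showed the pattern. Probe 849, paired like probe 2580, was above 0 on all 12 arrays, with a median of 0.302 under white light and 0.290 under blue light. Probe 3004, paired like probe 2760, was also above 0 on all 12 arrays, with medians of 0.110 and 0.413. Probe 222, paired like probe 4369, was at 0 on all 12 arrays, while probe 4369 had a median of 0.277 under white light. Since these probes are paired with several genes, they need not measure the same transcript.

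Members also lay close to each other in number. Of the 60 members, 16 (26.7%) had another member within 3 numbers, and of all probes 6.51% had a member other than themselves that close. Adjacent numbers were held by AT2G27680 and AT2G21530 (probes 3555 and 3556), by AT2G26100 and a several-gene probe (2288 and 2289), and by probes 3358 and 3359. All of these neighbours shared their direction, whereas probes 3211 and 3213 were detected under white light only and blue light only, respectively.

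Members often had a number close to that of a very bright probe. A probe with a median intensity above 5 in either light lay within 3 numbers of 16 of the 46 white-light probes (34.8%) and of 9 of the 14 blue-light probes (64.3%), against 11.5% of all probes and 8.07% of the 2378 probes above 0 on all 12 arrays. Whether neighbouring numbers are neighbouring spots is not stated by the labels. AT1G72890 and the unnamed probe 619 lie 2 numbers from probe 621, which had a median of 19.8 under white light and 72.5 under blue light. AT4G05070 lies next to probe 4360, with 2.68 under white light and 31.3 under blue light. AT2G21530 and AT2G27680 lie 1 and 2 numbers from the probe of AT2G27290, with 32.3 under white light and 65.5 under blue light.

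Values at 0 were more frequent near bright probes in both treatments. Among probes no brighter than 5, those within 3 numbers of a probe above 5 under the same light were at 0 in 31.1% of values under white light (216 probes) and in 33.6% under blue light (357 probes), against 13.3% and 15.8% of values of the other probes. Without numbers divisible by 6, a restriction added after seeing the data, these shares were 28.7% and 29.9% near bright probes, against 8.40% and 9.82%. Members of both directions were more frequent near bright probes, whichever light the bright probe was bright in. Of the 357 probes near a bright probe under blue light, 16 (4.48%) were detected under white light only, against 30 of the 2995 others (1%), and 9 (2.52%) were detected under blue light only, against 5 (0.167%). Of the 216 near a bright probe under white light, 8 (3.70%) were detected under blue light only, against 6 of 3169 others (0.189%), and 6 (2.78%) were detected under white light only, against 40 (1.26%). The part of bright neighbours in the members' zeros was not tested, and without probes that have such a neighbour in either light 30 white-light and 5 blue-light members remained.

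**Figure D4:**
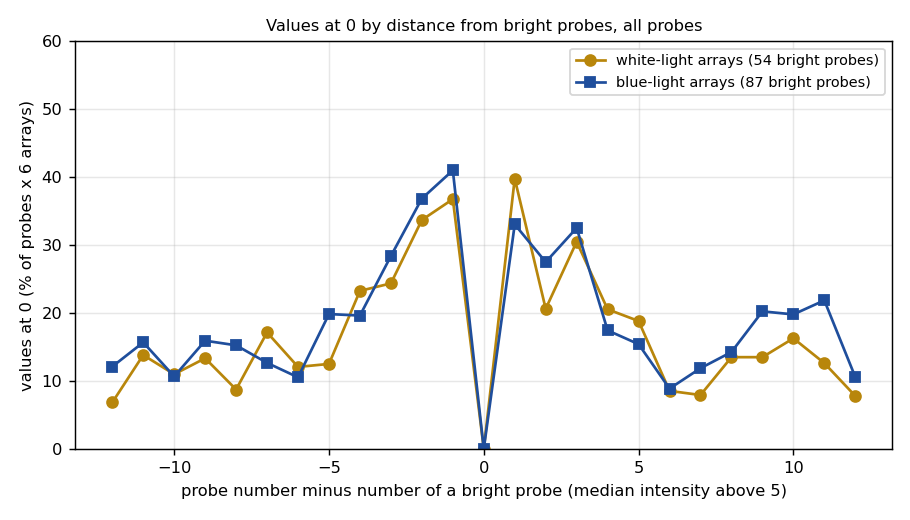
Share of values at 0 (vertical axis, percent of values over 6 arrays) for probes at each distance in probe number (horizontal axis) from the 54 probes above 5 under white light (gold circles) and the 87 above 5 under blue light (blue squares). The share is 36.8% and 39.8% next to bright probes under white light and 41.0% and 33.0% under blue light, and at distances of 7 to 12 numbers the gold circles lie at 6.82% to 17.1% and the blue squares at 10.6% to 21.9%.

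The brightest neighbour of white-light probes was compared between the lights. Within 3 numbers it was brighter under blue light for 42 of the 46 (91.3%), against 73.3% of all probes, and for 38 of 46 (82.6%), against 59.8%, after each array was divided by the median of its values above 0. Among directly adjacent numbers it was brighter under blue light for 26 of 45 (57.8%), against 58.0% of all probes, so no difference was seen there. For the 14 blue-light probes it was brighter under white light in 4 (28.6%), against 26.5% of all probes, a share near that of the whole table. These 4 were AT4G31930 and the unnamed or several-gene probes 2719, 2954 and 2957. Probe 2956, the neighbour of 2954 and 2957, had a median of 25.8 under white light and 7.71 under blue light.

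**Figure D5:**
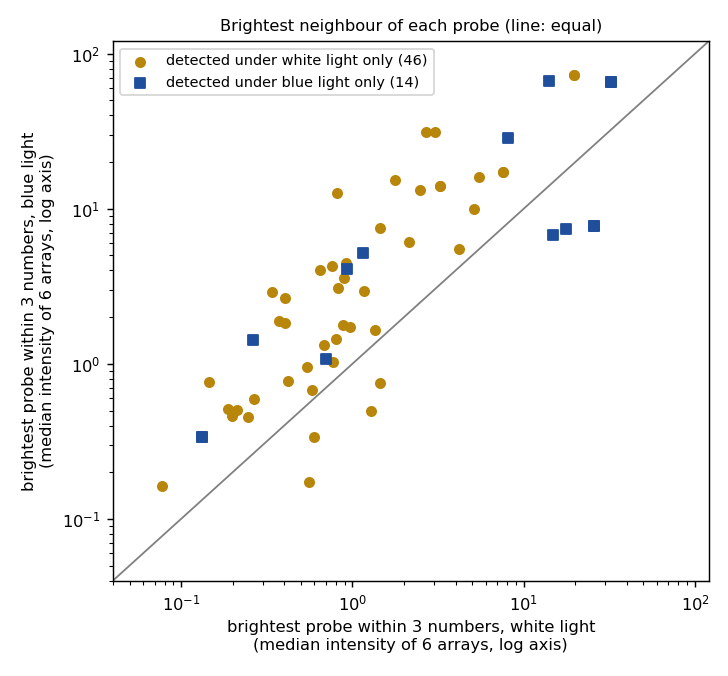
Median intensity of the brightest probe within 3 numbers of each member under white light (horizontal log axis) and blue light (vertical log axis), with gold circles for the 46 probes detected under white light only and blue squares for the 14 detected under blue light only. Of the gold circles 42 lie above the line of equal intensity, and of the blue squares 4 lie below it.

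Among the genes described above, the bright neighbours divide the list. AT1G72890, AT1G29070, DRT101 and AT4G05070 under white light and AT2G21530, AT2G27680 and AT4G31930 under blue light had a probe above 5 within 3 numbers. AT5G05330, AT1G58230, ETFQO, Cpn60beta4 and AT1G50770, and AT4G13680 and AT2G26100, did not. AT5G05330, at 0.348 to 0.535 on every white-light array and at 0 on every blue-light array, had the highest median of the genes detected under white light only that lacked such a neighbour. AT4G13680, with a brightest neighbour at 0.927 under white light and 4.09 under blue light, had the highest of those detected under blue light only. In total RNA of whole samples, fewer cells of a type and less RNA per cell cannot be told apart.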

How the data were processed

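Total RNA of 12 samples was measured on one-channel arrays. The authors' deposited table holds 1 intensity per probe and array, linear and between 0 and 100; the background correction, scaling and handling of spots at 0 are not stated in the labels. Intensities were used as deposited, without normalization, pseudocount or fold change, since a value of 0 may also be a failed estimate. Probes were counted by values above 0; 6 arrays per group limit the precision. No test was run on members, because the rule used the contrast, and the members and lists were chosen with earlier results of these data known. Genes came from the platform annotation, an old one, through single-gene probes, with 690 of 692 matched to the RefSeq table. Genes were named by the order of values at 0 under the other light, then by median, up to 20 per direction. The counting was tested on simulated data. Alternatives covered both array limits, percentile floors, left-out arrays and sets, and numbers divisible by 6; bright neighbours were added after seeing the data. Python 3.11.15, pandas 2.3.3 and matplotlib 3.10.9 were used.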

Additional observations from a re-analysis of the deposited data

How the results depend on the processing

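The counts of 46 and 14 moved most with the definition, and the count of 14 also moved with single white-light arrays. With at most 0, 1 or 3 arrays of the other light above 0 they were 14, 31 and 72 for white light and 3, 9 and 27 for blue light. With at least 5 of 6 detecting arrays they were 75 and 18, with a 5th percentile floor 72 and 24, and with a 25th percentile floor 127 and 128. Without arrays 5 and 6 of both groups they were 71 and 23, by a rule with fewer arrays to meet, and without probes near a bright one 30 and 5 (chosen after seeing the data). Leaving out 1 array at a time gave 46 to 64 and 14 to 24, never fewer, because a rule over fewer arrays is easier to meet; for blue light the count was 24 without white-light array 1 and 23 without white-light array 6. The median level of the members was 0.0835 to 0.108 and 0.222 to 0.271 with 1 detecting array left out. It was 0.456 and 0.880 as a multiple of each array's median above 0, 32.8 and 55.3 as a percentile rank, and for blue light 0.505 over the 3 probes at 0 on all white-light arrays. The share of members near a bright probe was 8.89% and 28.6% within 1 number, from fewer neighbours, and the brightest neighbour of white-light members was brighter under blue light in 57.8% within 1 number. With arrays counted as 3 sets the counts were 38 and 13. No paired analysis was possible because these counts come from no test. Dim signals near 0 limit every count.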
